A study of Homo sapiens with 19 samples.

Results

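The N-long knockdown of RBFOX2 was compared with control in HUES66 cells, a human embryonic stem cell line. The members were the 4 libraries whose titles name the N-long knockdown (N-long KD) and the 3 libraries titled as controls, 7 of the 19 libraries of the series. N-long KD was sampled at 24 hr (replicates 1 and 2), 48 hr and 96 hr of doxycycline at 1 ug/ml, and the control at 24 hr (replicate 2), 48 hr and 96 hr of the same treatment. The series title names Cas13d, an RNA-guided enzyme that cuts RNA, as the tool of knockdown. The labels give the controls the genotype WT and library names with the word empty, and they state neither the guides nor the number of clones. The libraries were made from total RNA after removal of ribosomal RNA. Knockdown and control were paired within 3 library sets (24 hr replicate 2, 48 hr and 96 hr), with 1 library of each group in a set. The 24 hr replicate 1 set has no library titled as control. The 4 libraries of N-short KD and 3 of total KD, under the same doxycycline treatment, share these sets and entered the fits to estimate the spread and for the contrasts named below. A HUES66 wild-type library, whose labels give no doxycycline dose and no time, was used only for side comparisons. The labels do not say whether the libraries of a group came from separate cultures, so p-values measure the spread between these libraries.

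RBFOX2 is an RNA-binding protein of the RBFOX family, which regulates alternative splicing. It binds the sequence TGCATG, and its position matters: sites downstream of an alternative exon are known to favour inclusion of that exon and sites upstream to favour skipping. Many of its target exons lie in genes of the cytoskeleton and of membranes. Alternative promoters give RBFOX2 proteins with different amino-terminal ends. The labels use the names N-long and N-short without a definition, so the alternative 5′ exons were followed through their splice junctions.

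What was measured is the number of reads across each splice junction, 10561686 to 14625040 per library in these 7 libraries, of which 97.9% to 98.3% fell on annotated junctions. A cassette exon is an exon that is either kept or skipped between the same outer exons, and its inclusion is the percent of inclusion reads among inclusion plus skipping reads. The stem cell label was checked against markers: 13 of 14 pluripotency genes passed the expression filter, with a summed level of 4219 to 5618 CPM (counts scaled to the library total) in the controls and 4299 to 5730 CPM in N-long KD. The exception, SOX2, is at 0 because it has no intron and gives no junction read, and the same holds for the neural marker SOX1. Markers of other cell types were partly present. The summed level of the fibroblast list was 391 to 563 CPM in the controls and 394.5 to 577 CPM in N-long KD, from COL1A1 and COL1A2, with DCN at 0. The neural ectoderm list summed to 32.5 to 41.3 and 28.9 to 43.6 CPM, mostly NES, with NEUROG2 at 0. The trophoblast list summed to 10.3 to 14.1 and 8.79 to 12.9 CPM, mostly TFAP2C and KRT7, with CGA and CGB5 at 0. The mesoderm list (1.19 to 1.74 and 1.59 to 2.48 CPM, HAND1 at 0) and the endoderm list (0.521 to 1.74 and 0.154 to 3.04 CPM, SOX17 at 0) were low. In no marker list did a gene pass the test in edgeR.

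The targeted gene was examined first. RBFOX2 (ENSG00000100320.22) spans 35738736-36028425 of chromosome 22 (GRCh38, minus strand). Its level was 134, 126 and 129 CPM in the controls at 24, 48 and 96 hr. In N-long KD it was 79.3 and 77.9 CPM in the 24 hr libraries, 90.9 CPM at 48 hr and 86.0 CPM at 96 hr. Every N-long KD library was below every control library. The fitted log2 fold change was -0.57 (SE 0.0707, edgeR quasi-likelihood test, adjusted p 2.7e-05), with log2 ratios of -0.78, -0.47 and -0.58 within the 24, 48 and 96 hr sets. The log2 change at 48 and 96 hr differed from that at 24 hr by 0.022 (SE 0.113, adjusted p 0.999). The call was lost with DESeq2 (adjusted p 0.0683) and with a term for time point alone (adjusted p 0.461), at log2 changes of -0.58 and -0.61.

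Alternative 5′ exons are spliced to the same downstream exon of RBFOX2. A 51-nt exon lies at 35938847-35938897 of chromosome 22, and its downstream intron runs from 35810005 to 35938846. All 51 nt are annotated as coding. The exon starts some annotated transcripts and is internal in others, so its reads do not measure a single promoter. The first exon nearer to the body of the gene starts its intron at 35840191, and only its last 27 nt are coding. The sequences across these junctions are shown because the capitals, the last 27 nt of each alternative exon, are where the transcripts differ, while the lower case part is shared (GENCODE 29 transcripts, GRCh38, minus strand).
51-nt exon: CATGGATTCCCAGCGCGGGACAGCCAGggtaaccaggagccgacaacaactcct
nearer first exon: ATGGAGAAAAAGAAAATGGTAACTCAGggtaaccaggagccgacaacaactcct

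The junction of the 51-nt exon had 44, 69 and 53 reads in the controls at 24, 48 and 96 hr. It had 18 and 20 reads in the 24 hr N-long KD libraries, 24 at 48 hr and 18 at 96 hr. The groups did not overlap, and the log2 fold change was -1.50 (SE 0.20, edgeR, adjusted p 1.7e-07). The junction of the nearer first exon had 21, 26 and 28 reads in the controls and 45, 20, 19 and 35 in N-long KD, with overlapping groups. Its log2 fold change was 0.16, with an SE of 0.255 and an adjusted p of 0.999. Of the reads of both junctions together, the 51-nt exon gave 67.7%, 72.6% and 65.4% in the controls, and 50% (95% Wilson interval 35.2% to 64.8%), 55.8% (41.1% to 69.6%) and 34.0% (22.7% to 47.4%) in N-long KD of these sets. In the 24 hr replicate 1 set it gave 28.6% (18.9% to 40.7%) in N-long KD, 92.9% in N-short KD and 76.9% in total KD. That N-short KD library had 6 reads on the junction of the nearer first exon. In the other sets N-short KD gave 85.1%, 81.0% and 92.1% at 24, 48 and 96 hr, each above the control of its set. N-short KD therefore does not stand in for a control here. These intervals cover counting error only. The junction that enters the 51-nt exon from an upstream exon (intron 35938898 to 36028239) had 16 to 19 reads in the controls and 6 to 25 in N-long KD (-0.25 on the log2 scale, SE 0.296, adjusted p 0.999). In the 48 hr N-long KD library it had 25 reads, against 24 on the junction that leaves the exon.

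RBFOX2 had 16 junctions among the 120834 tested. Of these 16, 6 passed, against 0.043% of all junctions, and all 6 were lower in N-long KD. The other 5 that passed lie in the body of the gene, with log2 fold changes of -0.69 to -0.54. These are smaller than that of the 51-nt exon, a difference between junctions that was not tested.

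**Figure D1:**
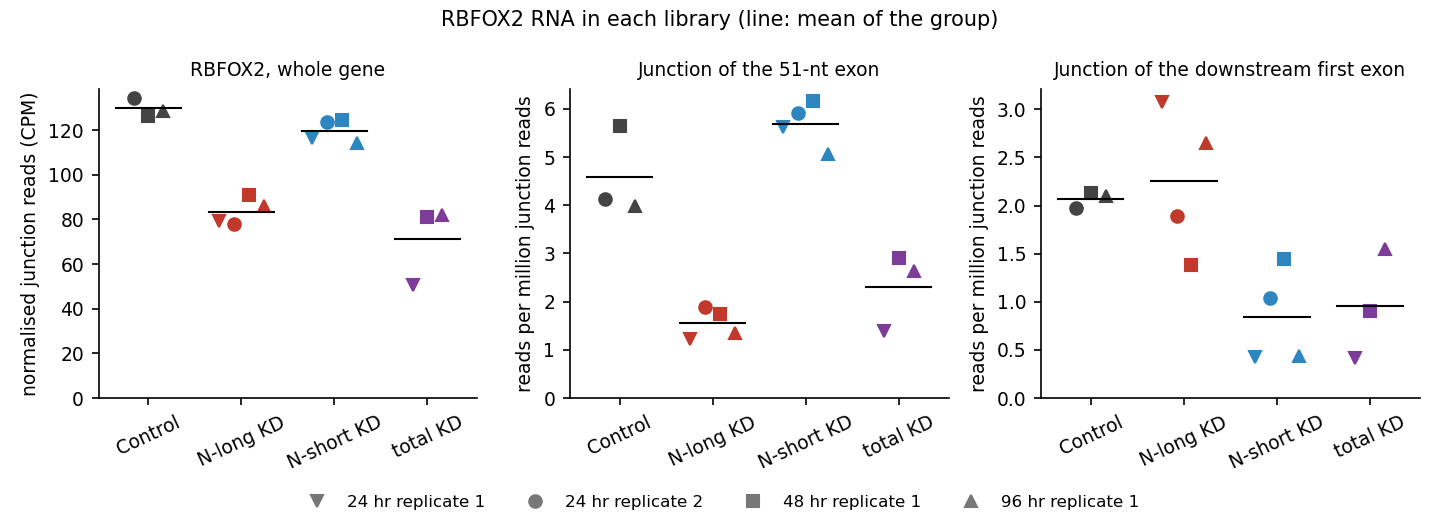
RBFOX2 RNA in each library as normalised CPM of the whole gene and as reads scaled to the junction reads of the library across the junction that leaves each alternative 5′ exon, by group on the horizontal axis, with marker shapes for library sets and lines for group means. The 4 N-long KD libraries lie below the 3 controls at the 51-nt exon (18 to 24 reads before scaling, against 44 to 69), and overlap with the controls at the nearer first exon (titled downstream).

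The main question of the comparison was which exons changed. Of 6875 cassette exons tested, 33 passed (0.48%), in 27 genes: 30 had lower and 3 had higher inclusion in N-long KD. Leaving aside SEPT7, which has few reads, the exons that fell furthest among those that passed were in GOLIM4, EPB41 and DIAPH1. GOLIM4 is a membrane protein of the Golgi, and EPB41 ties spectrin and actin to the plasma membrane. DIAPH1 is a formin that nucleates actin filaments. In 32 of the 33 the direction was the same in all 3 sets, and in 24 of the 33 the control and N-long KD libraries did not overlap, against 4.36% of all exons with reads in all 7 libraries. The median absolute difference was 13.7 points for the 33 exons and 1.83 points for all exons tested. NF2, MYH10, RPS24 and FAM126A each gave a pair of overlapping exons that share a splice site, and in EPB41 and TPM1 the 2 exons are neighbours, so the 33 are not independent. The calls depended on the model: with library sets left out 2 exons passed, with limma on log2 ratios 0 passed (440 at an unadjusted p under 0.05, against 376 with edgeR), and 19 passed, none of them higher, once the N-long KD library of 48 hr was left out. With the lower instead of the mean of the inclusion junctions 27 passed, and the exons of EPB41L1, MSI1, PCNX2 and TPM1, the 57-nt exon of EPB41 and the 45-nt exon of NF2 were among those that lost their call. With time points in place of sets 23 passed, and those of NF2, EML4, NSFL1C, MACF1, APP, PCNX2, RPS24 and SEPT7 were among those that lost it. In each of the 7 fits that left out 1 library, 14 exons passed, those of GOLIM4, CLSTN1, ECT2, DIAPH1, CTTN, ARHGAP17, ENAH, MPRIP, APP, the 63-nt exon of EPB41, the 30-nt exon of MYH10, the 22-nt exon of RPS24 and both of FAM126A.

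**Figure D2:**
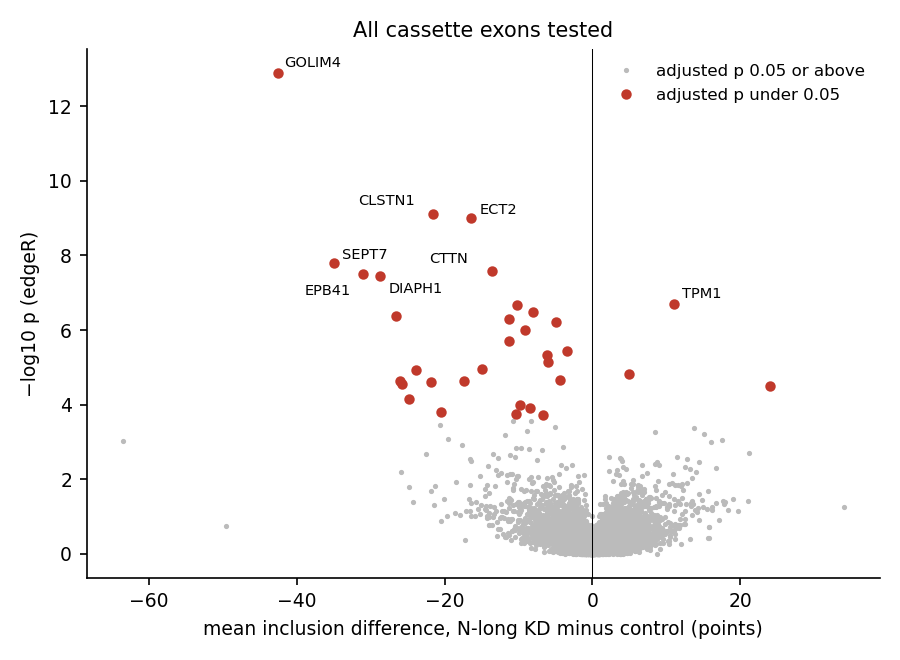
Mean inclusion difference within sets (N-long KD minus control, percentage points) on the horizontal axis and −log10 of the unadjusted p of edgeR on the vertical axis, 1 point per cassette exon. The 33 exons past the threshold are in red, 30 of them left of 0, and the 8 with the smallest p are named.

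The sequences of exons with large or steady changes are given here with 12 nt of the neighbouring exons, since they are what a transcript gains or loses. The exon is in capitals and its neighbours in lower case, as spliced in GENCODE 29 transcripts and on the strand of the gene.
GOLIM4, chr3:168040786-168040869, minus strand: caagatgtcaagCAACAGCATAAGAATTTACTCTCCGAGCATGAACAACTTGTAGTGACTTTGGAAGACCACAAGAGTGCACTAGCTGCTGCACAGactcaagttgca
EPB41, chr1:29060422-29060484, plus strand: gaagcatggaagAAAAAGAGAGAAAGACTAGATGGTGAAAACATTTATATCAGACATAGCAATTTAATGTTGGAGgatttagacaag
DIAPH1, chr5:141588224-141588250, minus strand: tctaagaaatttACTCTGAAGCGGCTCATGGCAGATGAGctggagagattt
CLSTN1, chr1:9737498-9737554, minus strand: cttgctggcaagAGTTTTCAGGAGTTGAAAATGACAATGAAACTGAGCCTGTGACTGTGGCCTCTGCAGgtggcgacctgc
ECT2, chr3:172755483-172755575, plus strand: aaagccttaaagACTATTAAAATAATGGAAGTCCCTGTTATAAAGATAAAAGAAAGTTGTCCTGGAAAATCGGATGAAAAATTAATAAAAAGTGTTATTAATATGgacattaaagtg
ENAH, chr1:225504991-225505053, minus strand: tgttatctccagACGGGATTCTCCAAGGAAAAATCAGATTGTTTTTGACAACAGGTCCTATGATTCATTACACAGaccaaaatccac
RAPGEF2, chr4:159243774-159243791, plus strand: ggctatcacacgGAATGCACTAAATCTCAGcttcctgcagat

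The 84-nt exon of GOLIM4 is coding and lies on chromosome 3. Its inclusion was 89.2%, 87.4% and 82.5% in the controls at 24, 48 and 96 hr, and 48.7%, 55.2% and 27.5% in N-long KD of the same sets, with 44.8% in the 24 hr replicate 1 library. All 4 N-long KD libraries were below all controls, on 74 to 120 reads per library. The mean difference was -42.5 ± 11.6 points (SD, n = 3 sets), with a log2 odds ratio of -3.13 (SE 0.28, adjusted p 9.2e-10). The exon passed in 14 of 15 alternatives, limma (adjusted p 0.0688) being the exception.

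The 63-nt exon of EPB41 was included at 72.2%, 65.8% and 83.3% in the controls and at 53.03%, 35.9% and 39.1% in N-long KD at 24, 48 and 96 hr, with 59.1% in 24 hr replicate 1. The groups did not overlap, and the mean difference was -31.1 ± 12.6 points (SD, n = 3 sets, adjusted p 3.5e-05). A neighbouring 57-nt exon of EPB41, at 29058589-29058645 of chromosome 1, changed by -26.0 ± 11.4 points (adjusted p 0.00669) on 26 to 60 reads per library. Its call was lost without the 48 hr library of either group and without the 96 hr control. Both EPB41 exons were measured against the same skipping junction, so the same skipping reads entered both results. The 411-nt exon of EPB41L1, a neuronal relative of EPB41, changed by -20.4 ± 11.5 points (adjusted p 0.0354) and also lost its call without the 24 or 48 hr control and without the first 24 hr or the 48 hr N-long KD library.

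The 27-nt exon of DIAPH1 was included at 78.3%, 92.1% and 74.8% in the controls and at 62.8%, 49.3% and 46.8% in N-long KD at 24, 48 and 96 hr, with 58.8% in 24 hr replicate 1. Again no library of one group reached the range of the other. The mean difference was -28.7 ± 13.7 points (adjusted p 3.5e-05). The 49-nt exon of ARHGAP17 had a control range of 57.4% to 64.6% and an N-long KD range of 31.2% to 38.4%, a difference of -26.6 ± 6.12 points (adjusted p 2.6e-04).

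Overlapping exons of 45 and 60 nt in NF2, which encodes merlin, a tumour suppressor under the plasma membrane, changed by -25.7 ± 6.73 and -24.9 ± 4.38 points (adjusted p 0.00746 and 0.0173). They share their start at 29683020 of chromosome 22, and both lost their calls without the 48 hr library of either group and without the 96 hr control, the 60-nt exon also without the 24 hr control. The 36-nt exon of MAGI1, a scaffold of cell junctions, stood between 47.2% and 50% in controls and between 19.6% and 30.8% in N-long KD (-23.9 ± 6.98 points, adjusted p 0.00411). The 57-nt exon of MSI1, an RNA-binding protein of stem and progenitor cells, stood between 76.4% and 85.2% in controls and between 48.0% and 69.2% in N-long KD (-21.9 ± 7.12 points, adjusted p 0.0068). The call of MAGI1 was lost without the 24 hr control and without the N-long KD library of 48 hr, and that of MSI1 without these and without the 48 hr control or the second 24 hr N-long KD library.

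The 57-nt exon of CLSTN1, a cargo adaptor for vesicle transport by kinesin, was the exon with the second smallest p. Its inclusion was 19.0%, 33.6% and 29.5% in the controls and 6.79%, 4.43% and 6.04% in N-long KD at 24, 48 and 96 hr, with 13.2% in 24 hr replicate 1. The N-long KD libraries were all below the lowest control, and the mean difference was -21.6 ± 8.59 points (log2 odds ratio -2.27, SE 0.279, adjusted p 2.3e-06). All 3 junctions of this exon also passed on their own: both inclusion junctions were lower (log2 fold changes of -1.66 and -1.71) and the skipping junction was higher (0.57).

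**Figure D3:**
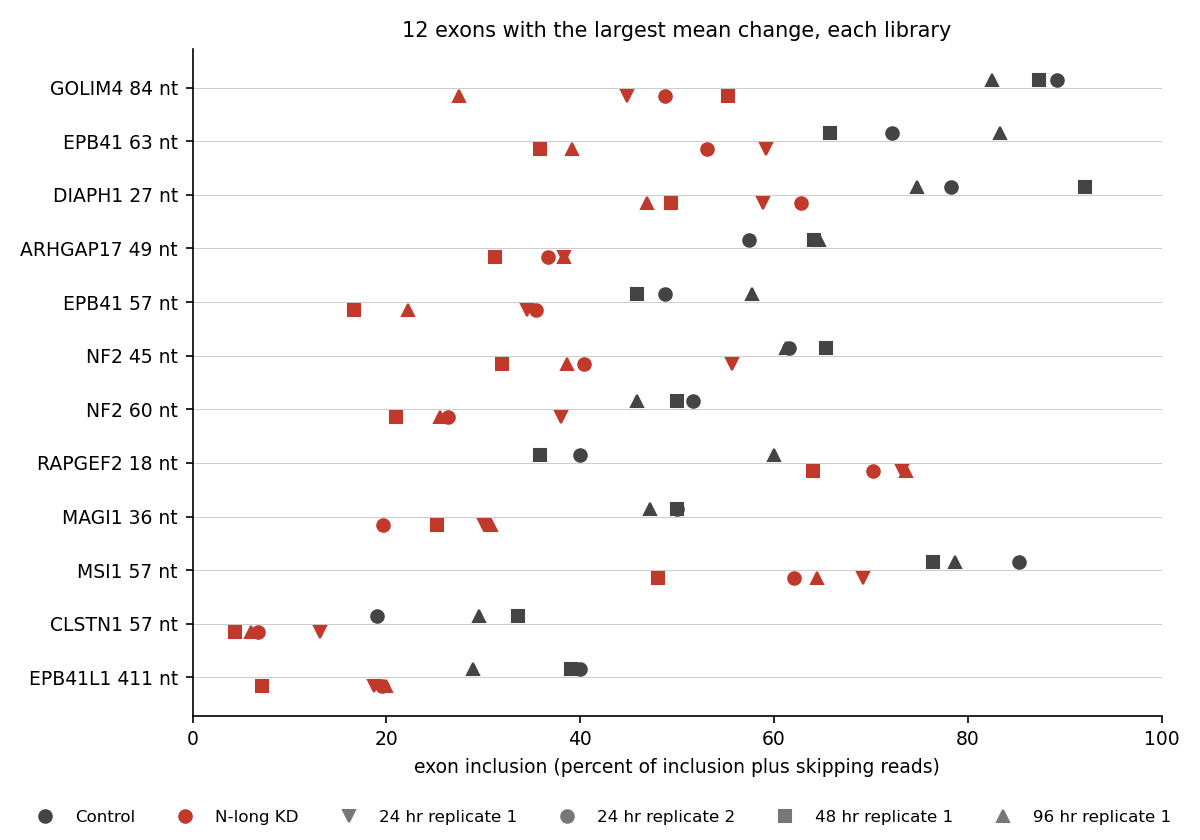
Inclusion of the 12 exons with the largest mean change among those with reads in every library (percent of inclusion plus skipping reads, horizontal axis), 1 point per library, controls in grey and N-long KD in red, with marker shapes for library sets. In all 12 exons the red and grey points are separate, and RAPGEF2 is the exon in which N-long KD is to the right.

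The 93-nt exon of ECT2, a protein needed for cell division, was included at 93.2%, 87.4% and 88.7% in the controls and at 79.6%, 61.0% and 79.5% in N-long KD at 24, 48 and 96 hr, with 81.3% in 24 hr replicate 1. The difference was -16.4 ± 8.94 points (adjusted p 2.3e-06), and the 48 hr library stood below the other 3. The 111-nt exon of CTTN, which encodes the actin-binding protein cortactin, ranged from 24.3% to 36.0% over the controls and from 12.9% to 18.3% over N-long KD (-13.7 ± 7.80 points, adjusted p 3.5e-05). The 63-nt exon of ENAH, a regulator of actin filament growth, ranged from 72.1% to 83.9% over the controls and from 61.2% to 69.5% over N-long KD, on 432 to 606 reads per library (-11.3 ± 2.81 points, adjusted p 9.1e-04).

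In MPRIP, which links myosin phosphatase to actin, a 63-nt exon had 93.6% to 97.7% inclusion in the controls and 79.7% to 90.2% in N-long KD (-11.3 ± 2.35 points, adjusted p 2.9e-04). In FAM126A, part of a lipid kinase complex at the plasma membrane, overlapping exons of 215 and 296 nt changed by -10.2 ± 5.78 and -8.02 ± 4.39 points. In MYH10, a heavy chain of nonmuscle myosin, overlapping exons of 30 and 27 nt were rare in the controls (6.87% to 10.8% and 3.99% to 7.49%) and rarer in N-long KD (2.77% to 3.71% and 1.60% to 2.16%), and the 27-nt exon lost its call when the N-long KD library of 48 hr was left out. DNM1L, the dynamin-related enzyme of mitochondrial fission, had a 78-nt exon between 33.3% and 44.1% in controls and between 22.5% and 25.4% in N-long KD, a call lost without the 48 or 96 hr library of either group. An 18-nt exon of MACF1, a linker of actin and microtubules, changed by -9.82 ± 7.59 points, a call that was lost without the 48 hr library of either group.

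For 6 lower exons the libraries of the groups overlapped although the direction was the same in every set, the lower exon of TPM1 described below being among them. The 174-nt exon of EML4, a microtubule-binding protein, was included at 66.0%, 37.3% and 78.0% in the controls and at 47.2%, 30.0% and 59.0% in N-long KD at 24, 48 and 96 hr. Both 48 hr libraries were the lowest of their group, as was that of N-short KD (43.3%). The call of EML4 was lost without the 24 hr control or the 96 hr library of either group. The 57-nt exon of APP, the amyloid precursor protein, changed by -9.09 ± 5.52 points (adjusted p 5.0e-04). The 22-nt and 25-nt exons of the ribosomal protein gene RPS24, on 3886 to 7516 reads per library, changed by -6.01 ± 2.64 and -4.43 ± 2.62 points, and the call of the 25-nt exon was lost without the 48 hr library of either group or the N-long KD library of 96 hr. A 6-nt exon of NSFL1C, a cofactor of membrane fusion, changed by -10.4 ± 7.16 points (adjusted p 0.0381), with 0 inclusion reads in the second 24 hr N-long KD library. Its call was lost without either group's 24 hr replicate 2 or 96 hr library and without the first 24 hr N-long KD library.

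A 959-nt exon of BRAF (-8.38 ± 3.09 points) and a 146-nt exon of PCNX2 (-6.69 ± 0.683 points) were included at 96.4% to 100% in the controls and had few skipping reads. The call of BRAF was lost without each library but the 24 hr N-long KD libraries, and that of PCNX2 without each but the second of these. A 543-nt exon of SEPT7 was the only called exon without the same direction in 3 sets. Its inclusion was 4.17%, 0% and 65.9% in the controls and 64.2%, 0% and 0% in the N-long KD libraries with reads, on 0 to 53 reads per library, and its call was lost without the 96 hr control.

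Inclusion rose in 3 exons. The 18-nt exon of RAPGEF2, an exchange factor for Rap GTPases, was included at 40.0%, 35.8% and 60.0% in the controls and at 70.2%, 64.0% and 73.6% in N-long KD at 24, 48 and 96 hr, with 73.2% in 24 hr replicate 1. The groups did not overlap, and the difference was 24.0 ± 9.07 points (adjusted p 0.00824), a call that rested on the 24 hr control and on the N-long KD library of 48 hr, being lost without either. An 81-nt exon of ACTN1, which encodes an actin crosslinker, rose by 5.00 ± 4.26 points (adjusted p 0.00477) from 85.6% to 96.4% in the controls to 94.6% to 99.0% in N-long KD. The groups overlapped, and the call was lost without the 48 or 96 hr library of either group. TPM1 encodes tropomyosin, a filament along actin, and has neighbouring exons of 76 nt. The exon at 63061198-63061273 of chromosome 15 rose by 11.0 ± 6.08 points (adjusted p 1.6e-04), and that at 63061713-63061788 fell by 6.11 ± 4.27 points (adjusted p 0.00186). Skipping of the first was read from the junction 63060940 to 63061712, which enters the second. The calls of these exons are therefore linked and are not separate events. Without the 48 hr N-long KD library neither of them passed, and the lower exon did not pass without the 48 hr control (adjusted p 0.184). With the lower of the inclusion junctions the log2 odds ratios were 0.72 (adjusted p 0.837) and -0.13 (adjusted p 0.993), against 0.86 and -0.73. In the 48 hr control they stood at 53.6% and 29.1%, and in the 48 hr N-long KD library at 71.7% and 18.1%. The pair is printed with the exon in capitals, from a transcript that holds both exons in a row, so each appears at the edge of the other. That transcript is annotated as nonsense-mediated decay, not as protein coding.
TPM1, chr15:63061198-63061273, plus strand: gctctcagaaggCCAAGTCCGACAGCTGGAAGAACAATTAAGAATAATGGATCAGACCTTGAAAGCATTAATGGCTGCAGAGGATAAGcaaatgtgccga
TPM1, chr15:63061713-63061788, plus strand: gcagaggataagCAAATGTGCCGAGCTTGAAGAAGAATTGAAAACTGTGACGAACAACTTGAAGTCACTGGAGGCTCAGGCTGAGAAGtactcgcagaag

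The called exons had features of length and annotation that the test did not use. Their median length was 63 nt, against 106 nt for all exons tested, and 7 of the 33 were at most 27 nt long, a length held by 2.60% of exons tested. In 24 of the 33 (72.7%) the length was a multiple of 3, against 46.5% of exons tested. Skipping such an exon keeps the reading frame only where the exon is coding. The 24 include exons that are not wholly coding, such as those of NF2 and MPRIP. Annotated coding sequence covered 23 of the 33 wholly (69.7%, against 60.1%). Mean control inclusion lay between 10% and 90% for 25 of the 33, against 37.8% of exons tested. It comes from reads that the test used, and a change is easier to detect in that range. Exons that overlap share these features, and no test was made.

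Whether the RBFOX sequence TGCATG lies downstream of the called exons could be read for only some of them, because introns were read from transcripts that retain them. Within 100 nt after the exon, on the strand of the gene, 11 of the 33 had such sequence, and 5 of these 11 (45.5%) held TGCATG, against 3.84% of the 1405 exons tested that had it. The 5 are those of DNM1L, APP and ACTN1 and the overlapping pair of NF2, which share 1 site. TGCATG began 27 nt after the exon of DNM1L, 84 nt after that of APP and 13 nt after that of ACTN1. ACTN1 is the member of this group in which inclusion rose. With 300 nt, 8 exons had sequence and 3 held TGCATG, against 11.0% of 974. Exons next to introns found in transcripts are not a sample of all exons, so these shares are descriptions. The 100 nt after the exons of DNM1L, APP and ACTN1 are printed with TGCATG in capitals.
DNM1L, chr12:32737943-32738042, plus strand: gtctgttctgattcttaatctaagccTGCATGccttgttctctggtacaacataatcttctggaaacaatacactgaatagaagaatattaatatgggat
APP, chr21:25997260-25997359, minus strand: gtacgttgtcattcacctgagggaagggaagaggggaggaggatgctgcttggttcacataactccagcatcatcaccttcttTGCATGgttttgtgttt
ACTN1, chr14:68878889-68878988, minus strand: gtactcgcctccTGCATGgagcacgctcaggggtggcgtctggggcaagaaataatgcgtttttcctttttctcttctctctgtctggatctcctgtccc

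The 3 sets differ in time, and 29 exons fell in all of them. Their median difference was -10.2 points at 24 hr, -18.6 points at 48 hr and -14.0 points at 96 hr. The difference was largest at 48 hr for 18 of the 29, at 96 hr for 10 and at 24 hr for 1. A term for the change in effect at 48 and 96 hr passed for 0 of 6875 exons with edgeR (286 at an unadjusted p under 0.05) and for 0 of 13393 genes (693 at an unadjusted p under 0.05). Among the 33 exons the smallest p of this term was that of CLSTN1 (log2 odds ratio -1.70, unadjusted p 5.2e-04, adjusted p 1). Each time has 1 pair of libraries, and the library name of the 24 hr pair is of another series than those of the later pairs, so time and series cannot be told apart.

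The 24 hr replicate 1 library of N-long KD has no titled control and allowed a look at a library left out of the choice of exons. When it was left out of the fit 32 exons passed. In that library 31 of these 32 went in the same direction against the N-short KD library of its own set, which stayed in the fit. Among the 6778 other exons with values the share was 49.4%. The median difference of the exons called lower was -5.87 points, and that of the other exons was -0.064 points. Against the HUES66 wild-type library, whose description carries the same name as the controls, it was again 31 of 32, beside 50.1% of the other exons. The labels of the wild-type library give no doxycycline dose and no time, so treatment and time could not be matched in this comparison.

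**Figure D4:**
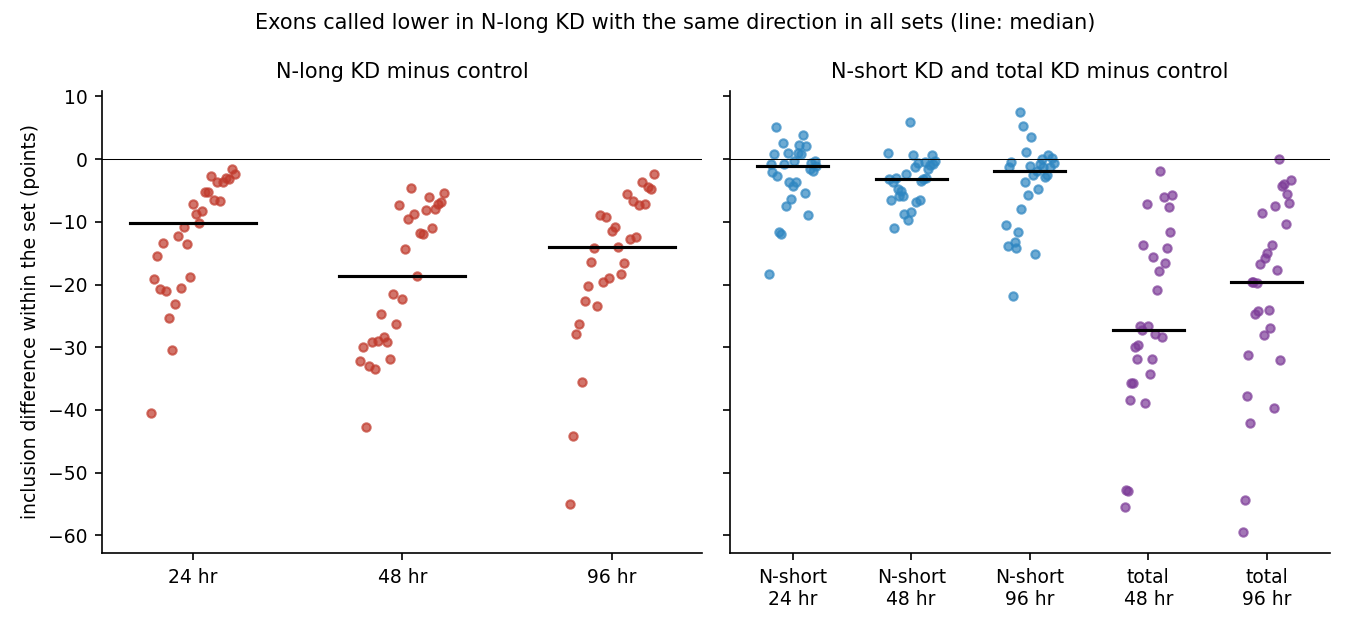
Inclusion difference within sets in percentage points (vertical axis) for the 29 exons that fell in all 3 sets, N-long KD minus control in red at 24, 48 and 96 hr, N-short KD minus control in blue and total KD minus control in purple. Lines are medians: -10.2, -18.6 and -14.0 points in N-long KD, -1.12, -3.12 and -1.92 in N-short KD, and -27.3 and -19.5 in total KD.

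The other knockdowns place these exons. Against N-short KD, 24 exons differed in all (0.349% of those tested). Of the 33 exons called against control 23 passed this contrast, each with the sign of the contrast against control. The N-long KD libraries that entered the choice of the 33 also enter this contrast. The count and the signs are therefore not independent of that choice. GOLIM4 was included at 70.9% to 88.3% in the N-short KD libraries (log2 odds ratio of N-long KD against N-short KD -2.23, adjusted p 8.6e-08) and MSI1 at 71.2% to 87.9% (-1.57, adjusted p 3.1e-04). The exons of NF2, MAGI1, MACF1, BRAF, PCNX2, NSFL1C and SEPT7, the 57-nt exon of EPB41 and the lower exon of TPM1 did not pass, which does not show that they are alike in the isoform knockdowns. Over the 29 exons the median difference from control was -1.12, -3.12 and -1.92 points in N-short KD at 24, 48 and 96 hr. The comparisons share their controls. Leaving out the N-long KD library of 48 hr left 11 exons that differed from N-short KD, and leaving out that of 96 hr left 12.

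Against total KD 34 exons differed (0.495%). Of the 33 exons called against control 10 passed, and in all 10 the fitted value of total KD was further from control than that of N-long KD. SEPT7, with few reads, is among them. ENAH was included at 46.8% to 49.6% in total KD against 61.2% to 69.5% in N-long KD (log2 odds ratio of N-long KD against total KD 1.05, adjusted p 1.7e-06). MPRIP stood at 65.8% to 71.7% in total KD and ECT2 at 48.5% to 66.0% (adjusted p 1.5e-05 and 3.5e-04). For GOLIM4 (23.0% to 33.0% in total KD) the contrast was 0.94 with an adjusted p of 0.0798, and for CLSTN1 (5.36% to 6.94%) 0.47 with an adjusted p of 0.954. RBFOX2 itself was higher in N-long KD than in total KD by a log2 change of 0.24 (SE 0.0746, adjusted p 0.089), which did not pass.

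Junctions outside cassette exons added events that the exon table does not hold. In all, 52 junctions passed, 35 lower and 17 higher. In DST, a giant linker of the cytoskeleton, an intron from 56600222 to 56610426 of chromosome 6 skips 5 annotated exons with 6258 nt in all. It had 22, 18 and 15 reads in the controls and 53, 68 and 60 in N-long KD at 24, 48 and 96 hr, with 40 in 24 hr replicate 1 (log2 fold change 1.60, SE 0.21, adjusted p 1.1e-07). The junction into the first of the skipped exons fell by 0.71 on the log2 scale (adjusted p 3.7e-04), from 110 to 158 reads to 65 to 97. Another DST junction inside this region, 56603714 to 56603836, fell by 0.64 (adjusted p 0.00165), and both falls lost their calls without the N-long KD library of 48 hr. As a share of the skipping junction and the junction into the first skipped exon together, skipping took 10.2% to 16.7% in the controls, 34.2% to 44.9% in N-long KD, 9.6% to 23.8% in N-short KD and 49.1% to 69.5% in total KD.

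Among the other junctions outside cassette exons with the same sign in 3 sets, a junction of PFN2, the actin monomer binder profilin, rose by 0.43 (SE 0.0699, adjusted p 8.1e-05) from 306 to 379 reads to 399 to 639, a call lost without the 48 hr control. A junction of OSGEP, a tRNA-modifying enzyme, rose by 0.73 (adjusted p 0.022), and a junction of RELL1 fell by 1.17 (adjusted p 0.0313). The call of OSGEP was lost without 4 of the 7 libraries in turn, the 24 and 96 hr pairs, and that of RELL1 without each of the 7. A junction of MAP1S passed with 0 reads in 2 of 3 controls and 33 in the other, against 45 to 63 in N-long KD. Of the 52 junctions 12 had that pattern, 0 reads in some of the 14 libraries and a median of at least 20 in the rest, which 0.0257% of junctions tested had. AP2M1, for example, had 0 reads in 3 N-long KD libraries and 625 in the other, and PHB2, RPL8 and RPS23 had reads in only 1 of these 7 libraries, an N-long KD library. The part of library-wise absence in these 12 calls was not tested.

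Changes in gene level were few. Of 13393 genes 3 passed (0.0224%), with 595 at an unadjusted p under 0.05: RBFOX2, MORC4 and CA3. MORC4, a nuclear protein of a family of chromatin ATPases on chromosome X (106813871 to 107000244), had 9.90, 6.52 and 6.64 CPM in the controls and 16.4, 15.9 and 11.7 CPM in N-long KD at 24, 48 and 96 hr, with 11.96 CPM in 24 hr replicate 1. The log2 fold change was 0.94 (SE 0.131, adjusted p 1.7e-04), the groups did not overlap, and without the 48 hr control the call was lost (0.79, adjusted p 0.0599). MORC4 had 13.2 to 21.0 CPM in total KD and 7.86 to 11.2 CPM in N-short KD. CA3, a carbonic anhydrase on chromosome 8, had 1.70, 11.0 and 5.34 CPM in the controls and 2.23, 1.82 and 0.485 CPM in N-long KD, a log2 change of -2.04 (adjusted p 0.0168) that had the opposite sign at 24 hr. It was also low in N-short KD (0.186 to 1.99 CPM) and total KD (0.364 to 1.93 CPM), and the call was lost without the 48 hr control (adjusted p 0.970), the 48 hr N-long KD library (0.773), the 96 hr control (0.361) and the 96 hr N-long KD library (0.29).

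The levels of the genes that host the called exons were taken from the same gene fit. All 27 were in it and 0 passed with edgeR, with 1 at an unadjusted p under 0.05 (TPM1, -0.083). Their log2 fold changes ran from -0.083 to 0.067, with a median absolute value of 0.028, against 0.062 for all genes. In bulk RNA, fewer cells with a transcript and less of it per cell cannot be told apart.

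Lists of related genes were looked up in the same fit. Of the RBFOX family, RBFOX2 passed, while RBFOX3 (0.12, SE 0.0977) and RBFOX1 (0.30, SE 0.362, at 1.10 to 2.23 CPM) did not. Of 8 genes of the LASR complex, in which RBFOX2 works with other splicing proteins, 0 passed, with log2 changes of 0.00015 to 0.036, the smallest p being those of HNRNPH1 (0.036) and HNRNPC (0.033). Of 41 other splicing regulators tested 0 passed, with 4 at an unadjusted p under 0.05, led by PTBP2 (-0.21, SE 0.0476, adjusted p 0.153) and TIA1 (0.13, adjusted p 0.854). In the p53 list (10 genes, median log2 change -0.055, led by MDM2 at -0.086 and CDKN1A at 0.37), the ATF4 list (12 genes, median 0.13, led by PHGDH at 0.12 and CHAC1 at 0.34) and the interferon list (6 of 11 tested, median 0.0012, led by IRF7 at 0.30 and IFIH1 at -0.27) 0 genes passed. The median of all genes was 0.0006.

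A list was made of 34 genes in which RBFOX target exons have been described. Every tested cassette exon of these genes was counted, 75 in 30 genes. Exons not themselves described as targets were not set apart. At gene level 0 of 33 tested genes of the list passed, led by SNAP23 (0.12) and CTTN (0.067). Of these 75 exons 10 passed, in 8 genes, and all 10 fell: those of GOLIM4, CLSTN1, ECT2, CTTN, DIAPH1 and ENAH and the pairs of EPB41 and MYH10. That is 13.3% of the tested exons of these genes, against 0.48% of all exons. It is not a rate for described target exons alone. The list was drawn up with earlier results of these data known and is not independent of them. The median difference of the 75 was -0.33 points and that of all exons -0.049 points. Among the exons of these genes that did not pass, PICALM (24 nt, -10.8 ± 7.27 points) and FN1 (273 nt, -8.35 ± 9.08 points) stood just outside the threshold. Both had an adjusted p of 0.0545 with edgeR. KIF21A (21 nt, -16.4 ± 8.66 points) had an adjusted p of 0.333. Others that did not pass went up, such as DNM2 (12 nt, 8.43 ± 3.99 points, edgeR adjusted p 0.0933). In CAMK2G an exon of 27 nt rose by 21.1 ± 9.19 points (adjusted p 0.900).

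The authors' own tests of the same comparison, made with rMATS at each time, were read from the authors' deposited tables, where the difference is control minus knockdown on a scale of 0 to 1. With an absolute difference of 0.1 or more and the authors' adjusted p below 0.05, the authors' deposited tables held 4 events at 24 hr (0.00699% of those listed), 12 at 48 hr (0.0266%) and 10 at 96 hr (0.0211%). These are 21 different events, of which 2 passed at all 3 times. In the authors' deposited tables GOLIM4 had differences of 0.355, 0.311 and 0.563 at 24, 48 and 96 hr, and CLSTN1 0.140, 0.313 and 0.237. ECT2 passed at 24 hr (0.131) and 48 hr (0.280) in the authors' deposited tables. Of the 12 cassette exon events past these limits in the authors' deposited tables, 10 were tested here and 9 of them were called, KIF21A being the exception. Of the 33 exons, 29 were listed at all times in the authors' deposited tables and 28 of these had the same direction at each time, where the event with the smallest p stood for an exon listed several times; both analyses use these libraries.

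Among other kinds of event in the authors' deposited tables, 9 passed at some time, and 2 of the 9 had the same sign at all 3 times. A pair of mutually exclusive exons of GOLIM4 (0.241, 0.288 and 0.367, with an adjusted p of 0.00555 at 96 hr) was listed there as well. An alternative donor of CUL4B, a scaffold of ubiquitin ligases, had differences of -0.011, -0.009 and -0.132, with an adjusted p of 0.0489 at 96 hr, in the authors' deposited tables.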

How the data were processed

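Junction files of 14 doxycycline-treated HUES66 libraries were used, and that of the HUES66 wild-type library for side comparisons. Their values are raw counts of reads per splice junction, deposited without normalization; the submitters' processing notes name STAR 2.7.1, SAMtools 1.9 and hg38. The authors' 3 rMATS tables of N-long KD hold an inclusion difference (of another unit than counts, from -1 to 1) and p-values, per the file headers; 69 per-library columns of the 9 deposited tables were not used. Members and gene lists were chosen with earlier results of these data known.

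Reads on GENCODE 29 junctions of 1 gene (94.4% to 94.8% per library) were summed per gene. Inclusion reads were the rounded mean of both inclusion junctions, and exons of up to 1000 nt with a mean of at least 20 reads and pooled inclusion of 2% to 98% were tested, 6875 of 38088. edgeR 4.0.16 (R 4.3.3, TMM, filterByExpr, quasi-likelihood F-test) fitted library set and knockdown, for exons with inclusion and skipping as paired columns, with Benjamini-Hochberg adjustment over all features and a threshold of 0.05. Depth limits exons most, since an exon has far fewer reads than a gene. Sets follow the labels' times and library series. After removal of knockdown means, control and N-long KD of a set correlated at 0.378, 0.715 and 0.583. DESeq2 1.42.0 and limma 3.58.1 were alternatives. The fits were tested on simulated data. Tables were made with Python 3.11.15.

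Named were RBFOX2 and its first-exon junctions, and genes and exons past the threshold. Of these exons, the 12 with the largest mean difference and the same direction in 3 sets were given in full. Also named were up to 10 junctions outside cassette exons with the same sign in 3 sets, and other rMATS events with the same sign at 3 times. Of each list without a call, the 2 members with the smallest p were named. The CPM given are normalised. No genome sequence was used.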

Additional observations from a re-analysis of the deposited data

Results flagged for a closer look

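Among the groups of 4 N-long KD libraries looked at, 2 exons had a library far from the other 3, in both cases the 48 hr library, which lay below them. The 411-nt exon of EPB41L1 was included at 7.14% in that library and at 18.8% to 20.0% in the others. The 93-nt exon of ECT2 was included at 61.0% there and at 79.5% to 81.3% in the others. Chance flags about 1 in 20 such groups, and 46 were looked at. In the 48 hr set ECT2 was also lowest in N-short KD (77.7%) and total KD (48.5%), and the control stood at 87.4%.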

How the results depend on the processing

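With no replicate block, that is without library sets, 0 genes, 0 junctions and 2 exons passed against control, 0 exons against N-short KD and 0 against total KD, the log2 change of RBFOX2 was -0.64 (adjusted p 1), and the log2 odds ratio of SEPT7 reversed to 0.059. The cause was not tested. Replacing sets by time points left 0 genes, and RBFOX2 had -0.61. DESeq2 called 1 gene, with -0.58 for RBFOX2. No filter on low counts gave 16 genes, and only N-long KD and control libraries gave 6. limma on log2 ratios called 0 exons against control (440 at an unadjusted p under 0.05), 0 against N-short KD (440) and 1 against total KD. Leaving out each library in turn gave 1 to 4 genes, 32 to 59 junctions and 19 to 40 exons against control, and leaving out each N-long KD library 11 to 24 exons against N-short KD and 23 to 31 against total KD. The authors' events with an absolute difference of at least 0.2 were 2 at 24 hr and 6 at 96 hr, and with an adjusted p under 0.01 6 at 96 hr. TGCATG lay in the 500 nt after 100% of the 2 lower exons with sequence, against 15.9% of 643 exons tested. With 300 nt it lay after 33.3% of 6 lower exons, against 11.0% of 974 exons tested. The lower exons with it at 300 nt were the overlapping pair of NF2, which share 1 site. Other counts of exons stayed within 1.5 times the main count, 23 to 44 against control. Depth limits exons with few skipping or inclusion reads, such as those of BRAF, PCNX2 and SEPT7.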
